A study of Mus musculus with 8 samples.

Results

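Forkhead transcription factors bind DNA through a winged-helix domain known as the forkhead box, and mouse genes of the family carry symbols made of Fox, a subfamily letter and a number. The members described here are all rows of the gene tables whose symbol has that form with a letter from a to s, leaving out 1 symbol, and there were 43 of them among 24505 rows. They were sorted by role into 12 broadly expressed factors (Foxo1, Foxo3 and Foxo4, Foxk1 and Foxk2, Foxj2 and Foxj3, Foxm1, Foxn2 and Foxn3, Foxp1 and Foxp4) and 31 lineage factors, a group that also holds the stem cell and neural crest factor Foxd3. The broadly expressed factors work in many adult and embryonic cells: FoxO proteins are kept out of the nucleus by AKT kinase signalling and switch on stress and cell cycle genes when that signal falls, FOXM1 drives mitotic genes, and FOXK and FOXP proteins recruit chromatin regulators. Lineage factors are known for opening chromatin or fixing identity in a particular tissue, such as FOXA proteins in endoderm and FOXC and FOXF proteins in mesoderm. In embryonic stem cells the promoters of many such developmental genes are known to be bivalent, carrying activating and repressive histone marks together while the gene stays silent.

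The RNA came from mouse embryonic stem cells of 1 line with a conditional allele of Ino80, which encodes the motor subunit of a complex that slides nucleosomes. Cells were grown in a naive medium (PD0325901 and CHIR99021, which inhibit MEK and GSK3, with LIF, on gelatin) or in a primed medium (FGF-2, Activin A and the tankyrase inhibitor XAV-939, on fibronectin), and each medium had 2 libraries labelled knockout and 2 labelled wild type, giving 4 groups and 8 libraries. Deletion was induced with 100 nM 4-hydroxytamoxifen for 2 days followed by 2 further days. Whether the wild-type cells received the drug, and which recombinase the line carries, are not given in the sources used here. Nothing says that replicate libraries came from separate cultures. The spread behind the p-values is estimated from differences between these libraries and may be technical. Total RNA was depleted of ribosomal RNA before sequencing, and values are RPKM, reads per length of gene and sequencing depth, which the authors scaled further by a method not given in the sources used here.

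The cells carried the markers of their labels. Pou5f1, which encodes the pluripotency factor OCT4, was at 560 to 694 RPKM in all 8 libraries, the naive marker Zfp42 was at 214 to 257 RPKM in naive and 0.0256 to 0.984 RPKM in primed libraries, and the primed marker Fgf5 was at 0.0812 to 0.244 RPKM in naive and 4.31 to 19.2 RPKM in primed libraries. The targeted gene did not separate the naive groups: Ino80 was at 15.95 and 15.05 RPKM in the libraries labelled naive knockout against 17.0 and 14.5 RPKM in wild type. In the primed state it was at 9.12 and 8.74 against 15.9 and 20.3 RPKM, and the tables hold 1 value per gene, which cannot show whether a deleted exon is gone. The libraries are therefore called by their labels. Summed RPKM ran from 341500 to 507600 per library, and the 2 libraries labelled primed knockout had the lowest sums. Depth is unknown, because RPKM were deposited without counts.

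The 43 members split by role into a detected and a largely silent set. All 12 broadly expressed factors stood above 1 RPKM in every library, and 10 of them (83.3%) were at 5 RPKM or more in all 8. Of the 31 lineage factors, 18 (58.1%) stayed below 1 RPKM in all 8 libraries and 0 reached 5 RPKM in all 8. Over all 24505 rows, 41.3% were below 1 RPKM in all 8 libraries and 28.7% at 5 RPKM or more in all 8. The roles were assigned from what the factors are known to do, with earlier results of these data in view, so the split is a description and carries no test. Summed over their members, the 12 broadly expressed genes held 190.3 to 324.7 RPKM per library and the 31 lineage genes 15.12 to 45.52 RPKM.

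**Figure D1:**
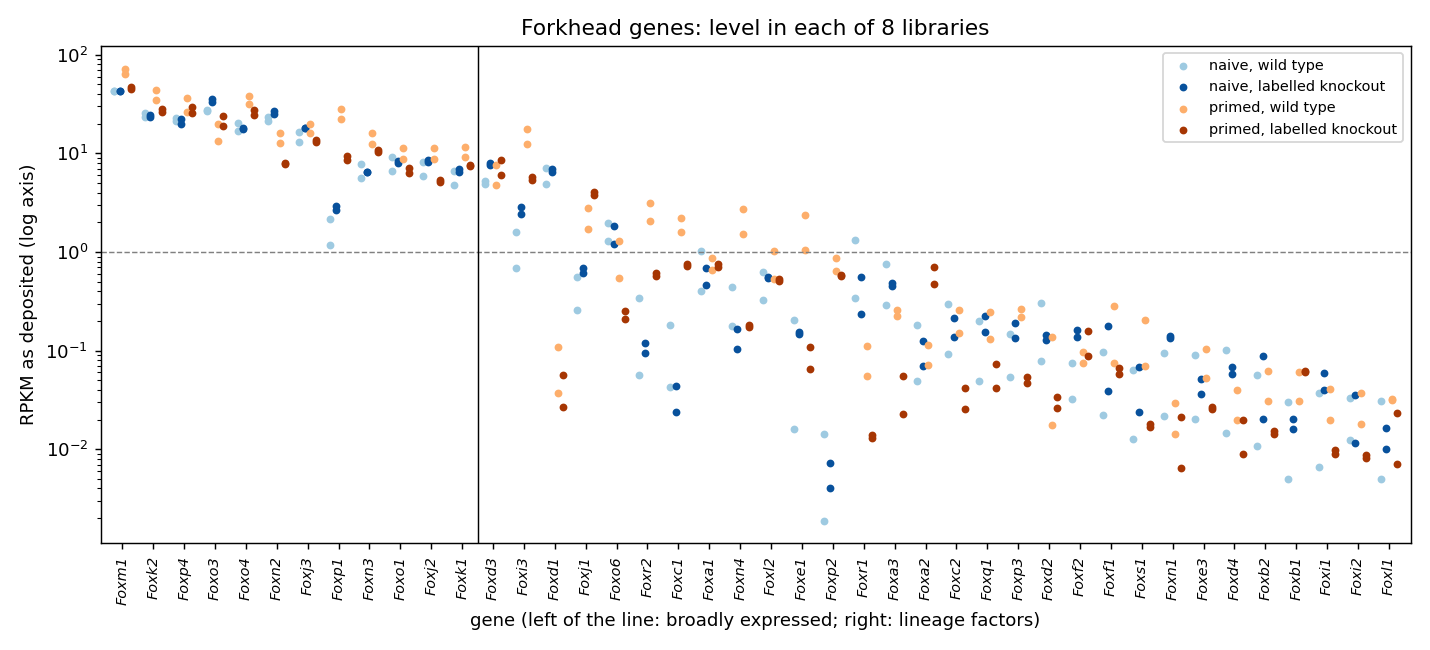
RPKM of 42 of the 43 forkhead genes in each of the 8 libraries, on a log axis, with broadly expressed members left and lineage members right of the vertical line, each ordered by mean, and colours for the 4 groups. The dashed line marks 1 RPKM. The 12 broadly expressed genes lie between 1.17 and 72.57 RPKM, while 18 of the 31 lineage genes lie below 1 RPKM in all 8 libraries.

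Foxm1, the activator of mitotic genes, was the member with the highest mean over the 8 libraries. It stood at 42.8 and 42.6 RPKM in naive wild type, 42.5 and 42.6 in naive knockout, 63.3 and 72.6 in primed wild type and 47.1 and 44.6 RPKM in primed knockout libraries. The naive libraries were nearly level, and both primed wild-type libraries lay above the other 6.

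The FoxO factors, the AKT-controlled arm of the family, ranked below it. Foxo3 was at 26.6 and 27.6 RPKM in naive wild type, 35.6 and 33.0 in naive knockout, 13.5 and 19.7 in primed wild type and 23.7 and 19.1 RPKM in primed knockout. Foxo3 was higher in both naive knockout libraries than in both naive wild-type ones, and the primed groups overlapped. Foxo4 was at 20.3 and 16.9, 18.2 and 17.6, 31.7 and 38.0, and 27.7 and 24.7 RPKM in the same order of groups. Foxo1 was lower, at 9.19 and 6.61, 8.29 and 7.98, 8.87 and 11.5, and 7.12 and 6.38 RPKM in that order. For both, naive wild type spread around naive knockout and primed wild type lay above primed knockout. Without overlap, 76.4% of all tested genes were lower in primed knockout too.

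FOXK proteins occupy promoters of metabolic genes and recruit the BAP1 and SIN3 complexes. Foxk2 was at 25.7 and 23.7 RPKM in naive wild type, 24.5 and 23.5 in naive knockout, 34.9 and 43.8 in primed wild type and 28.4 and 26.0 RPKM in primed knockout. Foxk1 was at 6.63 and 4.75, 7.03 and 6.47, 9.10 and 11.6, and 7.59 and 7.48 RPKM in the same order. The related Foxj3 was at 16.4 and 13.1, 18.3 and 18.3, 16.1 and 19.6, and 13.5 and 13.1 RPKM, and Foxj2 at 8.23 and 5.93, 8.65 and 8.16, 8.78 and 11.4, and 5.18 and 5.38 RPKM. All of these genes were lower in both primed knockout than in both primed wild-type libraries, as were 76.4% of all tested genes.

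Foxn2 and Foxn3 belong to a subfamily whose member FOXN3 is a cell cycle checkpoint repressor. Foxn2 was at 23.4 and 21.2 RPKM in naive wild type, 25.1 and 26.8 in naive knockout, 12.9 and 16.1 in primed wild type and 7.95 and 7.90 RPKM in primed knockout. Foxn3 was at 7.87 and 5.69, 6.51 and 6.41, 12.4 and 16.1, and 10.8 and 10.3 RPKM in that order. Foxn2 stood higher in the naive than in the primed libraries, and Foxn3 the other way round.

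FOXP proteins are repressors that work with NuRD-type chromatin complexes. Foxp4 was at 22.7 and 21.2 RPKM in naive wild type, 22.4 and 19.7 in naive knockout, 26.4 and 36.4 in primed wild type and 29.8 and 25.9 RPKM in primed knockout. Foxp1 had the widest range of the broadly expressed genes as a fold, at 2.18 and 1.17 RPKM in naive wild type, 2.94 and 2.64 in naive knockout, 22.2 and 27.9 in primed wild type and 9.49 and 8.67 RPKM in primed knockout. Foxp1 differed in the same direction between states in every library, and its knockout and wild-type libraries did not overlap in either state. Of all tested genes, 31.2% were higher in naive and 76.4% lower in primed knockout without overlap.

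Among the lineage factors, 3 stood well above the rest in at least 1 group. Foxd3, which maintains pluripotent cells and specifies neural crest, was at 5.20 and 4.91 RPKM in naive wild type, 8.04 and 7.56 in naive knockout, 4.77 and 7.69 in primed wild type and 8.52 and 6.06 RPKM in primed knockout. Foxd1, a factor of kidney stroma and retina, was at 7.15 and 4.90 RPKM in naive wild type and 7.02 and 6.42 in naive knockout, but at 0.0375 and 0.11 in primed wild type and 0.027 and 0.0567 RPKM in primed knockout. Foxi3, a factor of ear and pharyngeal ectoderm, was at 1.59 and 0.695 RPKM in naive wild type, 2.86 and 2.44 in naive knockout, 12.5 and 17.8 in primed wild type and 5.72 and 5.40 RPKM in primed knockout. Foxd3 was thus present in both states, Foxd1 mostly in the naive state and Foxi3 mostly in the primed state.

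A further 6 lineage factors had a group mean near or above 1 RPKM in the primed state. Foxj1, the activator of motile cilia genes, was at 0.56 and 0.26 RPKM in naive wild type, 0.694 and 0.611 in naive knockout, 1.71 and 2.79 in primed wild type and 4.04 and 3.76 RPKM in primed knockout. Foxe1, a thyroid and palate factor, was at 0.202 and 0.0162, 0.154 and 0.148, 1.06 and 2.39, and 0.108 and 0.065 RPKM in the same order. Both Foxj1 knockout libraries lay above wild type in each state, while Foxe1 was raised in the 2 primed wild-type libraries alone. Foxn4, a retinal and spinal interneuron factor, was at 0.443 and 0.179, 0.165 and 0.103, 1.54 and 2.76, and 0.175 and 0.181 RPKM, and Foxc1, a mesenchyme and eye factor, at 0.18 and 0.0432, 0.0442 and 0.024, 1.58 and 2.21, and 0.756 and 0.725 RPKM. Foxr2, a germ line gene, was at 0.338 and 0.0568, 0.118 and 0.0937, 2.04 and 3.15, and 0.574 and 0.616 RPKM. The neuronal FoxO gene Foxo6 overlapped between the states, at 1.99 and 1.29, 1.83 and 1.20, 0.551 and 1.30, and 0.254 and 0.209 RPKM.

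The endoderm pioneer factors were low. Foxa1 lay between 0.402 and 1.03 RPKM over the 8 libraries, and Foxa3 was at 0.749 and 0.289 RPKM in naive wild type, 0.48 and 0.455 in naive knockout, 0.225 and 0.258 in primed wild type and 0.0558 and 0.0229 RPKM in primed knockout. The ovarian factor Foxl2 lay between 0.327 and 1.03 RPKM, and Foxr1 between 0.234 and 1.33 RPKM in naive and between 0.0129 and 0.11 RPKM in primed libraries. Of the 8 mesoderm and mesenchyme genes 6 were below 1 RPKM in all libraries, as were 8 of the 13 neural, eye and other ectoderm genes, 2 of the 3 endoderm genes and 2 of the 4 genes of cilia, gonad, thymus and immune cells. The immune factor Foxp3 and the thymus factor Foxn1 are the silent members of that last group.

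Silent members sat together in the genome in 3 places, and the place on chromosome 13 also holds Foxc1, which was not silent in primed wild type. On the RefSeq positions of GRCm38.p6, which is not the mm9 build of the tables, Foxf1, Foxc2 and Foxl1 lie on chromosome 8 between 121084386 and 121130644, a span of 46.3 kb, and the highest value of any of them was 0.294 RPKM. Foxd2 and Foxe3 lie on chromosome 4 between 114906280 and 114926067, a span of 19.8 kb, with a highest value of 0.306 RPKM. Foxq1, Foxf2 and Foxc1 lie on chromosome 13 between 31558170 and 31810635, a span of 252 kb, with a highest value of 2.21 RPKM, which belongs to Foxc1. In all, 11 of the 43 members overlap another RefSeq gene, among them Foxo3, Foxp1, Foxm1 and Foxj2, and whether counting used strand is unstated in the sources used here, so reads of an overlapping gene cannot be told apart from theirs.

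The lowest values of the silent members carry little information. In the naive state, 101 genes shared exactly 0.048 and 0.0336 RPKM in the 2 knockout libraries and 0.0842 and 0.0184 RPKM in the 2 wild-type libraries, and the primed state had 115 genes at 0.0234 and 0.0247 in knockout and 0.0493 and 0.097 RPKM in wild type. The highest of these shared values was 4.58 times the lowest in the naive and 4.15 times in the primed state, so a gene with these values already differs between libraries by that much. These were the largest of 968 naive and 1098 primed groups of genes with identical values. Such tied values reached 2.09 RPKM in the naive and 3.47 RPKM in the primed state. The shared floor values named below are those of the 101 and 115 genes, and they are no limit that holds for every gene. Differences at such levels were not read as differences in expression.

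Levels in the naive and primed states are set side by side without a test, because the states may have been scaled apart. Of the 43 members, 6 had all 4 naive libraries above all 4 primed ones, 13 had all primed libraries above the naive ones, and 24 overlapped, beside 12.9% and 13.1% of all rows in the 2 directions. The lowest naive value exceeded the highest primed value 44.6-fold for Foxd1 and 2.12-fold for Foxr1. The primed values of both genes, at most 0.11 RPKM, lay about the shared floor values given above, so the size of these ratios was not read. In the other direction, the lowest primed value exceeded the highest naive value 40.2-fold for the speech and brain factor Foxp2, 4.02-fold for Foxc1, 2.95-fold for Foxp1, 2.47-fold for Foxj1, 1.89-fold for Foxi3 and 1.70-fold for Foxr2. Foxp2 remained below 1 RPKM in all libraries, at 0.574 to 0.872 RPKM in the primed state, and lay between 0.00188 and 0.0143 RPKM in the naive state. Those naive values lay below the floor values shared by the 101 naive genes, so the size of the Foxp2 ratio was not read either.

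Promoter sequence was examined because the study concerns promoters that hold opposing marks, which are typically rich in CpG. RefSeq promoters of GRCm38.p6 (250 bases before to 50 bases after the start) were matched by symbol for 28 of the 43 members, giving 33 promoters. The median number of CpG pairs was 34 in the 10 promoters of broadly expressed members (range 5 to 59), 15 in the 23 promoters of lineage members, 11 in the 14 promoters of members below 1 RPKM in all 8 libraries (range 5 to 27) and 7 in all 32851 promoters. Median GC content was 72.6%, 62.3%, 59.2% and 52.7% in the same order. These are descriptions of unequal sets, and some genes enter with more than 1 promoter.

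The next 5 promoters show this range, from the densest member through a FoxO factor, the lineage factors Foxd3 and Foxi3 and a silent one, each 5′ to 3′ on the gene's strand in lower case with each CpG pair in capitals. Foxk2 holds 59 CpG pairs and 79.3% GC, Foxo3 35 and 75.0%, Foxd3 25 and 65.7%, Foxi3 31 and 69.0%, and Foxi2 5 and 58.0%.
Foxk2, chr11:121259737-121260036, plus strand: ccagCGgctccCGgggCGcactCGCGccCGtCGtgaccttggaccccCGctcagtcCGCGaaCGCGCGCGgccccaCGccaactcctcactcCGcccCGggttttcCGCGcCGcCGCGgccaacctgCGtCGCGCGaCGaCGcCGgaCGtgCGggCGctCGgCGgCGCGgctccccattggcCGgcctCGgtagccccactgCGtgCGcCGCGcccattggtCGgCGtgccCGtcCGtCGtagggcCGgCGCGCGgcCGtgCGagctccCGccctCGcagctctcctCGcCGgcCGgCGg
Foxo3, chr10:42276646-42276945, minus strand: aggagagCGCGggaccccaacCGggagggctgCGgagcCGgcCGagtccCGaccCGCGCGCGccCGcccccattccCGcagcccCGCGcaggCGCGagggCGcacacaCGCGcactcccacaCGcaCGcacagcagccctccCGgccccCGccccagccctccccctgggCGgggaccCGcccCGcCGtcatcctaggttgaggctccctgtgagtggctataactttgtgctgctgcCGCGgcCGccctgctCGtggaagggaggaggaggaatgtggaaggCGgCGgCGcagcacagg
Foxd3, chr4:99656049-99656348, plus strand: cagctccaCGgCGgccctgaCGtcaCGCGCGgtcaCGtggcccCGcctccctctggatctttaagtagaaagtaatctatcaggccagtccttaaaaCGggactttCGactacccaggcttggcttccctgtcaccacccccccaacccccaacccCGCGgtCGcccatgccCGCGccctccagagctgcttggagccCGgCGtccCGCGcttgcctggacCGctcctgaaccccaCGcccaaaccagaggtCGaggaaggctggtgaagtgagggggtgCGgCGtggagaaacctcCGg
Foxi3, chr6:70956356-70956655, plus strand: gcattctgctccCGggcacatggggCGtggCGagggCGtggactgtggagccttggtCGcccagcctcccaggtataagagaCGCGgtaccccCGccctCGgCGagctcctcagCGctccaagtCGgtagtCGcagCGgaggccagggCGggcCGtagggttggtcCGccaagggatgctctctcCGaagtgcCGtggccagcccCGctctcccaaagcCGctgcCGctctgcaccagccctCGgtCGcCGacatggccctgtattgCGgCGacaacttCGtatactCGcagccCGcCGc
Foxi2, chr7:135410117-135410416, plus strand: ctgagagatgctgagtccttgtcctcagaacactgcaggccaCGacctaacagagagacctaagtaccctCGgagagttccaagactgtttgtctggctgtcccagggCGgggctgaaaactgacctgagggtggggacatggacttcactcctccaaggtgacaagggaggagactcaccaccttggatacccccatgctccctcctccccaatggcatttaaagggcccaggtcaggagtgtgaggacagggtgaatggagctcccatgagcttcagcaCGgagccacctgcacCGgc

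Motif matches gave no feature common to the members. The forkhead core TGTTTAC, searched on both strands, was in 1 of the 33 member promoters (3.03%), that of Foxa1, and in 3.65% of all RefSeq promoters of that length. TATAAA on both strands was in 3 of 33 (9.09%), all lineage genes, against 13.6% of all promoters. GCCATNTT, the motif of YY1, a DNA-binding partner of the INO80 complex, was in 0 of 33 on both strands against 6.05%. A missing match says only that these letters are not in the 300 bases examined.

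**Figure D2:**
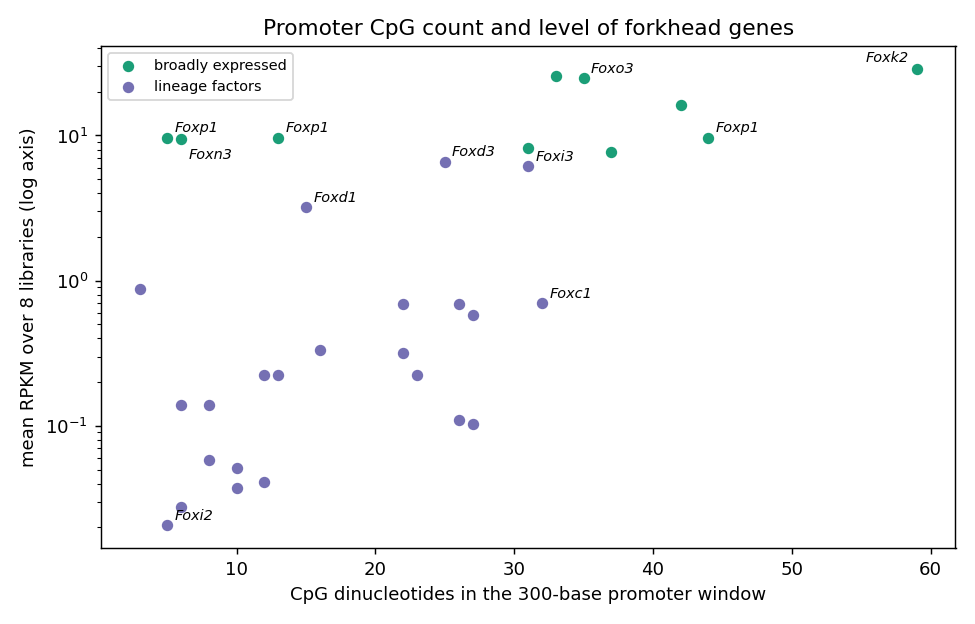
Mean RPKM of the gene over the 8 libraries (vertical, log axis) against the CpG pairs in its 300-base promoter (horizontal axis), 1 point per promoter, with colour for broadly expressed and lineage genes. Promoters of broadly expressed members have a median of 34 CpG pairs and those of lineage members 15, and Foxp1 appears with 3 promoters of 5, 13 and 44 CpG pairs.

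The next question was how the forkhead genes differed between libraries labelled knockout and wild type within each state. Differences are of log2(RPKM + 1), knockout minus wild type, ± SE, from limma over the 13428 genes that reached 1 RPKM in 2 or more libraries, with Benjamini-Hochberg adjusted p under 0.05 as the threshold. They understate the change of low genes, and in bulk RNA fewer cells of a type and less RNA per cell cannot be told apart. As deposited, the spread of each gene was set wholly by the trend over genes of like level, not by its own libraries. The SE and p-value of a gene thus carry the typical spread at its level. After quantile normalization the spread of the gene itself entered too. The filter kept 22 members, the 12 broadly expressed genes and 10 lineage genes (among them Foxc1, Foxd1, Foxd3, Foxe1, Foxi3, Foxj1, Foxn4, Foxo6 and Foxr2), and 21 lineage genes fell below it. Foxc1, Foxe1, Foxn4 and Foxr2 passed through primed wild type alone, so their lower primed knockout values are tied to the filter and support no count. The median difference over all tested genes was 0.05 in the naive and -0.53 in the primed state. Quantile normalization brings those medians to 0.02 and 0.03. Most forkhead values, and the primed values of named partners and targets, are therefore also given on that scale.

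In the naive state 1 member rose in the knockout-labelled libraries, Foxi3, and 0 fell. Foxi3 rose by 0.80 ± 0.28 (n = 2 per group; limma, adjusted p = 0.0365), and by 0.82 after quantile normalization (limma, adjusted p = 7.78e-06). Over all genes 6.08% were higher and 5.85% lower, so 1 higher of 22 members stands near the background. The Foxi3 call was lost without either naive knockout library (limma, adjusted p = 0.503 and 0.282), without the second naive wild-type library (0.49, adjusted p = 0.267), and without either primed knockout library (adjusted p = 0.151 and 0.15), which enter only through the shared estimate of spread. It was lost too without the filter (adjusted p = 0.19) and with each state fitted alone (limma, adjusted p = 0.146).

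Without passing the test as deposited, Foxp1 differed by 0.53 ± 0.26 (limma, adjusted p = 0.187), Foxd3 by 0.54 ± 0.25 (limma, adjusted p = 0.165) and Foxo3 by 0.33 ± 0.15 (limma, adjusted p = 0.136) in the naive state. After quantile normalization these were 0.52, 0.49 and 0.28, all past the threshold. In all, 9 members were then higher and 2 lower, beside 31.9% and 27.5% of all genes. With loess 9 were higher and 3 lower, beside 29.1% and 28.4%, and with median centring 4 and 0, beside 16.1% and 17%. Knockout libraries lay above wild type without overlap for 7 of the 22 members, against 31.2% of tested genes, and below for 1, against 21%. The second naive wild-type library held lower values than the first, by medians of 0.345 to 0.521 log2 units in all bins of level but that of the strongest genes (0.062). This gap touches Foxi3, Foxp1 and Foxj1, and also Foxj2, Foxj3 and Foxk1. In primed wild type the first library held the lower values, with medians of first minus second from -0.249 to -0.408 log2 units. The part of these gaps in the differences of the members was not tested.

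**Figure D3:**
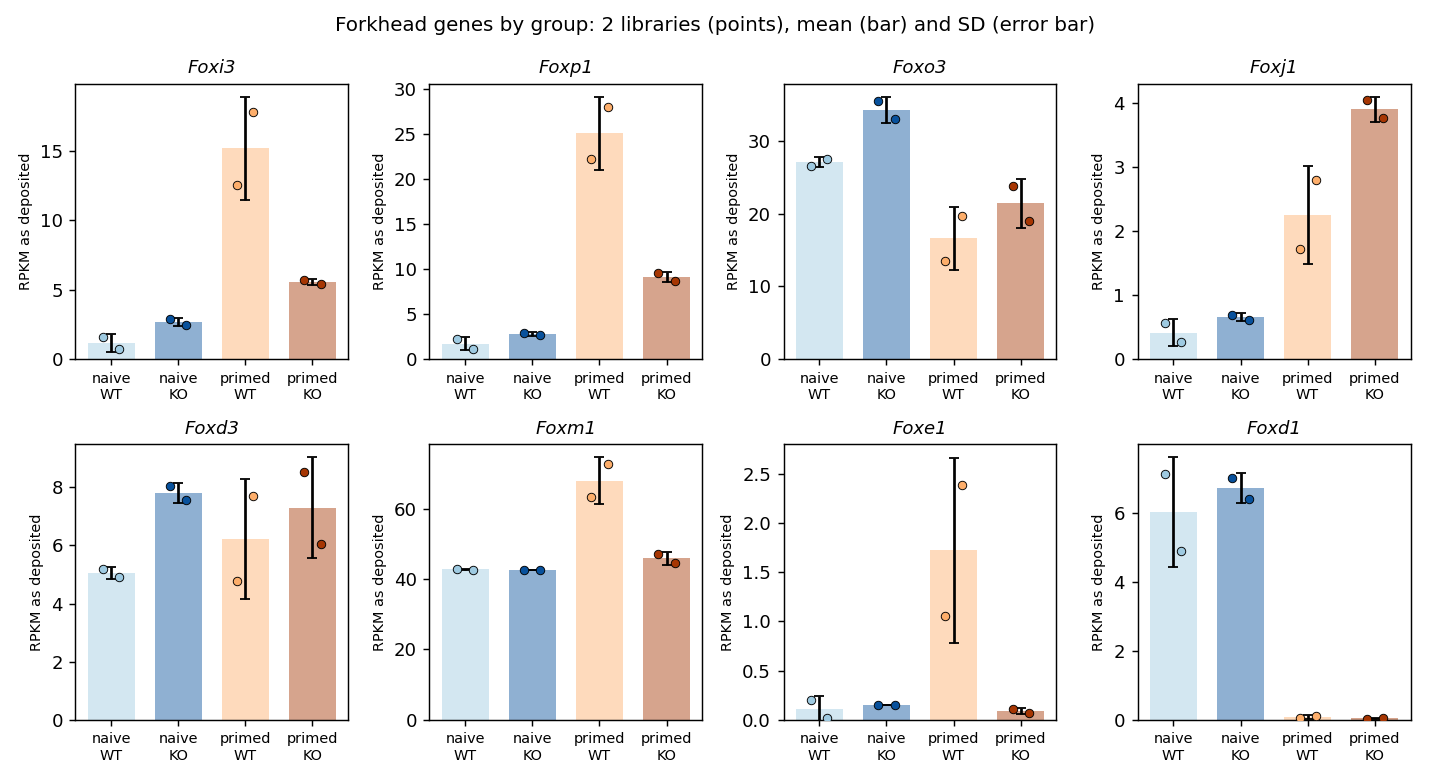
RPKM (vertical axis, from 0) of 8 members in the 4 groups (horizontal axis), with 1 point per library, bars for the mean and error bars for the SD (n = 2). Foxp1 and Foxi3 have both knockout libraries above wild type in the naive and below it in the primed state, and Foxj1 has both above in each state.

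In the primed state 14 of the 22 tested members fell and 2 rose in the knockout-labelled libraries, as deposited. Over all tested genes 59.3% fell and 4.16% rose, so the number of forkhead genes that fell stands near the background. Without the 4 genes that the filter admitted through primed wild type, 10 of 18 fell and 2 rose. After quantile normalization 6 fell and 9 rose, beside 34.6% and 39.4% of all genes, with loess 6 and 11, beside 36.5% and 37%, and with median centring 5 and 11, beside 23.6% and 41.6%. Without those 4 genes 3, 3 and 2 fell under these scalings, in that order. The members that rose with loess and with median centring include Foxd1, whose primed values of 0.027 to 0.11 RPKM lay about the shared floor values. The median difference of the 22 members was -0.51 as deposited and 0.01 after quantile normalization, against -0.53 and 0.03 over all genes. The members whose call was the same under all 4 scalings (as deposited, median centring, quantile normalization and loess) were Foxp1 and Foxi3, which fell, Foxj1 and Foxo3, which rose, and Foxe1, Foxn4 and Foxr2, whose lower values are tied to the filter.

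Foxp1 fell by 1.36 ± 0.26 (n = 2 per group; limma, adjusted p = 6.11e-07), and by 0.74 after quantile normalization (limma, adjusted p = 1.2e-06). Foxi3 fell by 1.28 ± 0.28 (limma, adjusted p = 1.4e-05), and by 0.59 after quantile normalization (limma, adjusted p = 1.44e-05). Neither call was lost when any 1 library was left out. Among the genes that the filter admitted through primed wild type, Foxn4 differed by -1.39 ± 0.24, Foxe1 by -1.28 ± 0.23 and Foxr2 by -1.16 ± 0.25, and by -0.85, -0.82 and -0.47 after quantile normalization. In the primed state Foxe1 and Foxn4 stood between 0.065 and 0.181 RPKM in the knockout libraries and between 1.06 and 2.76 RPKM in wild type.

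Foxj1 and Foxo3 rose against the general shift, and both calls depended on single libraries. Foxj1 rose by 0.61 ± 0.27 (n = 2 per group; limma, adjusted p = 0.0379), and by 1.30 after quantile normalization (limma, adjusted p = 4.97e-07). As deposited its call was lost without either primed knockout library (limma, adjusted p = 0.206 and 0.159), without the first primed wild-type library (0.37, adjusted p = 0.266) and without either naive knockout library (adjusted p = 0.0843 and 0.0839). Foxo3 rose by 0.36 ± 0.15 (n = 2 per group; limma, adjusted p = 0.0225), and by 0.98 after quantile normalization (limma, adjusted p = 1.65e-05). Its call was lost without the first primed knockout library (0.21, adjusted p = 0.393), without the first primed wild-type library (0.11, adjusted p = 0.4) and without either naive knockout library (limma, adjusted p = 0.0708 and 0.0698), and the value was 0.62 without the second primed wild-type library. Foxj1 did not pass with a pseudocount of 0.1, without the filter, with each state alone or with library weights (limma, adjusted p = 0.0541 to 0.164), nor Foxo3 without the filter, with each state alone or without a trend (limma, adjusted p = 0.052 to 0.15). Foxd3 differed by 0.21 ± 0.25 as deposited (limma, adjusted p = 0.474) and by 0.98 after quantile normalization (limma, adjusted p = 4.69e-04).

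For 6 of the other broadly expressed genes the direction turned on the quantile scale. Foxo1, Foxo4 and Foxj3 fell by 0.52, 0.40 and 0.39 as deposited (limma, adjusted p = 0.0436, 0.013 and 0.0404) but were higher by 0.22, 0.11 and 0.26 after quantile normalization (limma, adjusted p = 0.00205, 0.0146 and 4.18e-04). Foxk1, Foxn3 and Foxp4 differed by -0.40, -0.39 and -0.15 without passing the test, and were higher by 0.33, 0.29 and 0.37, past the threshold, after it. Foxk2, Foxn2 and Foxj2 fell by 0.51, 0.79 and 0.81 as deposited (limma, adjusted p = 5.27e-04, 2.07e-05 and 0.00191), and after quantile normalization differed by -0.02, -0.10 and -0.07 without passing the test. Foxm1 fell by 0.55 ± 0.11 (n = 2 per group; limma, adjusted p = 3.5e-06) and by 0.16 after quantile normalization (limma, adjusted p = 4.13e-04), and was at 0.14 with median centring (limma, adjusted p = 0.362). Over the 12 broadly expressed genes 8 fell and 1 rose as deposited, beside 59.3% and 4.16% of all genes, with a median of -0.46. On the quantile scale 2 fell and 7 rose, beside 34.6% and 39.4%, with a median of 0.16.

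Several of the smaller falls rested on 1 library. The calls of Foxo1 and Foxj3 were lost without any of 5 libraries, with adjusted p from limma of 0.0993 to 0.288, and that of Foxo4 without the second primed knockout or wild-type library (limma, adjusted p = 0.208 and 0.0608). Foxj2 lost its call without the first primed knockout library (limma, adjusted p = 0.0524). Of the lineage genes, Foxo6 fell by 0.62 and Foxc1 by 0.73 as deposited (limma, adjusted p = 0.0277 and 0.00548), while after quantile normalization they differed by -0.15 and -0.09. The Foxo6 value was -0.33 without the second primed wild-type library (limma, adjusted p = 0.34), and the Foxc1 call was lost without either primed knockout library (limma, adjusted p = 0.06 and 0.0778). Foxd1 at -0.04 did not pass the test as deposited. It was at 0.65 with median centring and 0.19 with loess (limma, adjusted p = 2.32e-04 and 0.025). With primed values of 0.027 to 0.11 RPKM, these calls were not read as differences in expression.

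**Figure D4:**
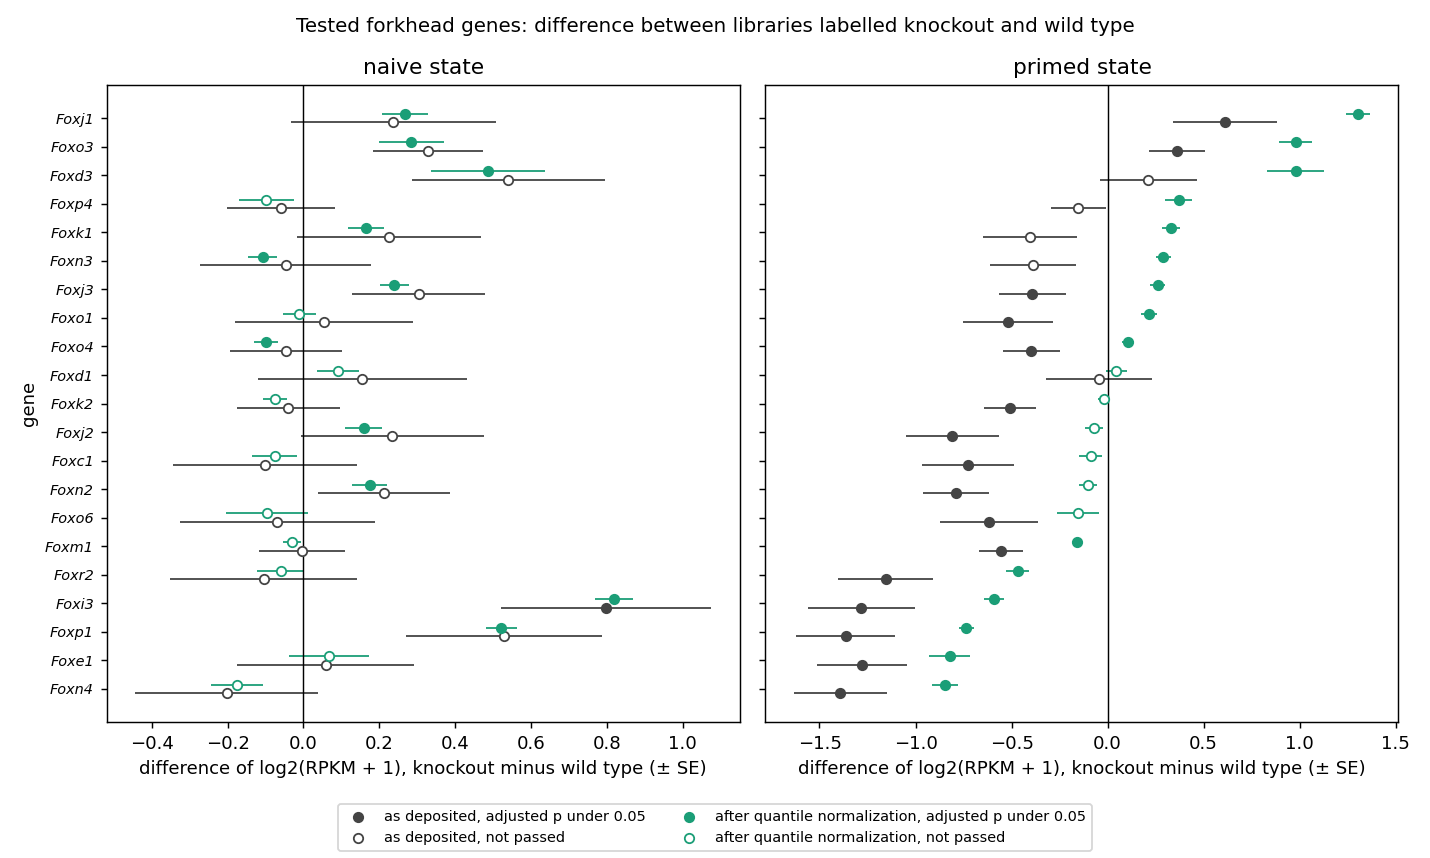
Difference of log2(RPKM + 1), knockout minus wild type, with error bars of 1 SE, for 21 of the 22 tested members in the naive and primed states, as deposited and after quantile normalization, with filled points past the threshold. Foxn4, Foxp1, Foxi3, Foxe1 and Foxr2 lie below 0 in the primed state on both scales, and Foxj1 and Foxo3 above 0, while Foxo1, Foxo4 and Foxj3 change sign.

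Of the 21 lineage genes below the filter, a fit over all 24505 rows called 4 in the primed state and 0 in the naive state. Foxa2, the pioneer factor of endoderm and floor plate, was at 0.114 and 0.0717 RPKM in primed wild type and 0.697 and 0.477 RPKM in primed knockout, against 0.181 and 0.0491 in naive wild type and 0.126 and 0.0692 RPKM in naive knockout. It rose by 0.53 ± 0.085 in the primed state (n = 2 per group; limma, adjusted p = 1.07e-05), and it is named here after its values were seen and was not refitted without single libraries. Foxp3, Foxc2 and Foxs1 fell by 0.24, 0.22 and 0.16 (limma, adjusted p = 0.00327, 0.0205 and 0.0171), as did 36.6% of all rows, while 2.29% rose. The primed knockout values of Foxp3, Foxc2 and Foxs1 lay between 0.0167 and 0.054 RPKM. The shared floor values were themselves lower in primed knockout (0.0234 and 0.0247 RPKM) than in primed wild type (0.0493 and 0.097 RPKM). In the naive state 2.6% of all rows rose and 2.85% fell. Over all 43 members 30 had both primed knockout libraries below both wild-type ones, against 78.3% of rows, and 2, Foxa2 and Foxj1, had both above, against 5.1%. The part of the floor's own direction in the falls of Foxp3, Foxc2 and Foxs1 and in these counts was not tested.

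Markers of other cell types differed between the same primed libraries. The summed level of 8 mesoderm markers was 39.4 and 35.8 RPKM in primed knockout against 5.87 and 8.41 RPKM in primed wild type, nearly all of it T, at 37.4 and 33.7 against 1.94 and 2.89 RPKM, while Mesp1 and Mixl1 lay between 0.0204 and 0.0729 RPKM in primed knockout. The summed level of 8 endoderm markers went the other way, at 1.51 and 1.47 against 2.68 and 4.16 RPKM, with Sox17 at or below 0.132 RPKM in all 4 primed libraries. So did 8 fibroblast markers, at 16.9 and 16.1 against 39.1 and 53.5 RPKM, and 8 neural markers, at 31.2 and 29.8 against 72.3 and 90.6 RPKM. These sums are as deposited, a scale on which 59.3% of all tested genes fell in the primed state. After quantile normalization 0 of 2 tested endoderm markers rose and 1 fell. For fibroblast markers 0 rose and 4 fell of 6, and for neural markers 2 and 3 of 5, beside 39.4% and 34.6% of all genes. With median centring 1 endoderm marker rose and 0 fell, beside 41.6% and 23.6%. The 8 trophoblast markers, most of whose level is Krt8, stood at 42.7 and 39.0 against 22.7 and 27.8 RPKM. In the naive state the neural sum was higher in knockout, at 81.36 and 78.15 against 45.6 and 40.6 RPKM in wild type. The mesoderm, endoderm, fibroblast and trophoblast sums overlapped between the naive groups. The part of other cells in the differences of Foxa2, Foxj1, Foxi3 and Foxp1 was not tested.

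The difference between the states in the knockout effect was tested in the same model. As deposited it was lower in the primed state for 10 members (7 without the genes admitted through primed wild type alone) and higher for 0, beside 47.4% and 2.16% of all tested genes, and after quantile normalization lower for 8 and higher for 6, beside 30.5% and 33.9%. With loess 8 were lower and 6 higher, beside 30.6% and 32.7%, and with median centring 3 and 7, beside 17.1% and 29.2%. Without the genes admitted through primed wild type alone, 5, 5 and 3 of 18 members were lower with quantile normalization, loess and median centring. Foxi3 had the largest of these values among the 22 tested members, at -2.08 ± 0.39 (limma, adjusted p = 1.61e-06), since it was higher in naive and lower in primed knockout libraries. Foxp1 was at -1.89 ± 0.36 (limma, adjusted p = 2.79e-06). Foxi3, Foxp1 and Foxj2 were lower in this test under all 4 scalings. Foxj2 was at -1.04 as deposited, but at -0.23, -0.21 and -0.29 with quantile normalization, loess and median centring.

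The AKT branch and the FoxO targets were read next, from lists of known regulators and targets. Of 26 regulators of FoxO through PI3K and AKT, 0 passed the test in the naive state as deposited. Of all genes, 6.08% were higher and 5.85% lower. On the quantile scale 13 regulators were higher and 4 lower in that state, beside 31.9% and 27.5% of all genes. As deposited 3 rose and 14 fell in the primed state, with a median of -0.35, beside 4.16% and 59.3% of all genes. On the quantile scale 14 rose and 7 fell there, beside 39.4% and 34.6%, with a median of 0.13 against 0.03 for all genes. Sgk1, a kinase that like AKT phosphorylates FoxO proteins, rose from 5.19 to 10.6 RPKM in the primed state (0.93; 1.68 after quantile normalization). Xpo1, the exporter that carries FoxO proteins out of the nucleus, rose from 117 to 154 RPKM (0.40; 0.61), and Pik3cb, a catalytic PI3K subunit, fell from 11.9 to 5.21 RPKM (-1.04; -0.32). These values passed the test on both scales.

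Of 27 FoxO target genes 23 were tested, and in the naive state 4 rose and 2 fell, beside 6.08% and 5.85% of all genes. On the quantile scale 6 were higher and 9 lower in that state, beside 31.9% and 27.5%, and with median centring 4 and 6, beside 16.1% and 17%. Txnip, a redox regulator, rose from 24.7 to 57.1 RPKM in the naive state (1.18) and fell from 59.0 to 24.1 RPKM in the primed state (-1.25), and the pro-apoptotic Bbc3 rose from 10.8 to 22.1 RPKM in the naive state (0.97). The primed Txnip value was -0.81 after quantile normalization. In the primed state 17 of 23 fell and 0 rose, beside 59.3% and 4.16% of all genes, with a median of -0.84 against -0.53 for all genes. On the quantile scale 14 fell and 6 rose there, beside 34.6% and 39.4%, with a median of -0.27 against 0.03. With median centring 9 fell and 7 rose, beside 23.6% and 41.6%. Cdkn1b, an inhibitor of cyclin-dependent kinases, fell from 65.7 to 12.9 RPKM (-2.26), and Gadd45a, a stress gene, from 60.9 to 13.6 RPKM (-2.07). After quantile normalization these differences were -1.78 and -1.59. In the naive state Cdkn1b fell from 29.8 to 19.9 RPKM (-0.56; limma, adjusted p = 0.00121) and Cited2, a transcriptional co-regulator, from 34.1 to 23.7 RPKM (-0.50; limma, adjusted p = 0.00978), and each call was lost without either naive knockout library (limma, adjusted p = 0.0887 and 0.109 for Cdkn1b, 0.217 and 0.294 for Cited2) and, for Cited2, without either naive wild-type library (adjusted p = 0.0579 and 0.0699).

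FOXM1 acts with the MuvB complex on genes of mitosis. Of 10 MuvB partners 7 fell and 0 rose in the primed state as deposited, near the 59.3% of all genes that fell, with a median of -0.74. On the quantile scale 6 fell and 4 rose, beside 34.6% and 39.4% of all genes. With median centring 5 fell and 4 rose, beside 23.6% and 41.6%, with a median of -0.04 against 0.16 for all genes. Lin9 fell from 13.1 to 3.66 RPKM (-1.58) and Lin52 from 7.48 to 2.04 RPKM (-1.46), both MuvB subunits. Their differences were -0.87 and -0.69 after quantile normalization. Of 23 FOXM1 targets 19 fell and 0 rose in the primed state, beside 59.3% and 4.16% of all genes, with a median of -0.57. On the quantile scale 16 fell and 5 rose, beside 34.6% and 39.4%, with a median of -0.18 against 0.03 for all genes. With median centring 2 were lower and 5 higher, beside 23.6% and 41.6% of all genes, with a median of 0.13 against 0.16. Cdc25b and Cdc25c, phosphatases that trigger entry into mitosis, fell from 25.0 to 8.14 RPKM (-1.50) and from 28.3 to 13.8 RPKM (-0.98). On the quantile scale they fell by 0.87 and 0.40.

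In the naive state 4 of the 23 FOXM1 targets fell, beside 5.85% of all genes, with a median of -0.14, while Foxm1 itself differed by -0.00 (limma, adjusted p = 0.993). On the quantile scale 14 fell and 1 rose in that state, beside 27.5% and 31.9% of all genes, at a median of -0.17 against 0.02. With median centring 1 fell, beside 17% of all genes. Plk1, the kinase of mitotic entry, fell from 79.3 to 60.6 RPKM (-0.38; limma, adjusted p = 0.00285) and the spindle motor gene Kif20a from 72.9 to 58.8 RPKM (-0.31; limma, adjusted p = 0.045). The Plk1 call was lost without either naive knockout library or the second naive wild-type library (limma, adjusted p = 0.0717 to 0.249), and that of Kif20a without any of 6 libraries and with median centring (limma, adjusted p = 0.0629).

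Partners of FOXK and FOXP proteins gave 2 higher and 1 lower of 17 tested in the naive state and 0 higher and 10 lower in the primed state, with medians of 0.11 and -0.40. The primed share is near the 59.3% of all genes that fell, and in the naive state 6.08% of all genes were higher and 5.85% lower. After quantile normalization the naive counts were 9 higher and 6 lower, beside 31.9% and 27.5% of all genes. The primed counts were then 8 higher and 8 lower, beside 39.4% and 34.6%. Hdac1, a histone deacetylase, fell from 77.2 to 54.8 RPKM in the naive state (-0.49), and Sap30 and Ncor1, subunits of corepressor complexes, fell from 43.3 to 10.7 RPKM (-1.91) and from 36.8 to 11.3 RPKM (-1.61) in the primed state. Sap30 and Ncor1 differed by -1.37 and -1.06 after quantile normalization. Asxl1, a partner of BAP1, rose from 31.1 to 43.7 RPKM (0.48; limma, adjusted p = 0.00176) and the NuRD subunit gene Gatad2b from 23.4 to 32.2 RPKM (0.45; limma, adjusted p = 0.0161) in the naive state. Both of those calls were lost without either naive knockout library, with adjusted p from limma of 0.117 and 0.149 for Asxl1 and 0.438 and 0.219 for Gatad2b, and Gatad2b lost it without the second naive wild-type library too (0.37, adjusted p = 0.186). Fitted without an intensity trend, the naive calls of Cdkn1b, Cited2, Plk1, Kif20a, Asxl1, Gatad2b and Hdac1 were lost as well (limma, adjusted p = 0.059 to 0.31), while those of Txnip and Bbc3 were not.

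Targets of the lineage factors mostly fell below the filter. Of 18 motile cilia targets of FOXJ1 only 8 were tested, and 0 rose and 2 fell in the primed state, in which Foxj1 rose. Of all genes 4.16% rose and 59.3% fell there. After quantile normalization 3 rose and 1 fell, beside 39.4% and 34.6%, and with median centring 5 and 1, beside 41.6% and 23.6%. Of 15 genes of the endoderm network around FOXA factors 6 were tested, and 1 rose and 0 fell in the primed state. After quantile normalization 4 rose and 0 fell, and with median centring 6 and 0, beside the same shares of all genes. The 1 gene called as deposited was Eomes, a T-box factor of mesendoderm, beside the higher Foxa2. Eomes rose from 1.18 to 6.59 RPKM (1.80, limma, adjusted p = 5.82e-10), and by 2.41 after quantile normalization.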

How the data were processed

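Per-gene RPKM of 8 libraries were read as the authors deposited them, with 1 value per gene and no counts. The submitters' processing notes name cutadapt 1.9, STAR 2.5.2b, featureCounts 1.5.1, the affy package and the mm9 genome, with no roles or settings. The deposited values carry a further scaling, its method not given in the sources used here. It may have set the 2 states apart, so states were tested only through the knockout effect. ERCC spike-in RNA was added to lysates per the labels' protocols, and 0 spike-in rows were found.

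Members were all symbols of the stated form, and 1 of the 44 such symbols was left out by that rule. It and a few other named results are not reported here. The members, their roles and the lists of partners, targets and markers were chosen with earlier results of these data known. Values were given in every library for members with a group mean of at least 5 RPKM, called members and the 2 highest of each role. From the lists, up to 2 genes per direction and comparison were named by size, where groups did not overlap and the higher mean was at least 5 RPKM.

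limma 3.58.1 in R 4.3.3 was fitted to log2(RPKM + 1) with 4 group means over 8 libraries, an intensity trend and 13428 genes at 1 RPKM or more in at least 2 libraries, and was tested on simulated data. The alternatives were other scalings, filters and pseudocounts, a variance without a trend, library weights, each state alone, a replicate block and leaving out each library. Levels under other scalings were added after the data were seen.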

Additional observations from a re-analysis of the deposited data

Results flagged for a closer look

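The knockout effect differed between the primed and naive states, by the test of that difference within 1 limma model, for 10 members as deposited, all lower, beside 47.4% of all tested genes. Foxe1, Foxn4 and Foxr2 among them passed the filter only through high primed wild-type values, which ties their direction to the filter. The differences, primed minus naive, were -2.08 for Foxi3, -1.89 for Foxp1, -1.34 for Foxe1, -1.19 for Foxn4, -1.05 for Foxr2, -1.04 for Foxj2, -1.0012 for Foxn2, -0.70 for Foxj3, -0.55 for Foxm1 and -0.47 for Foxk2, beside a median of -0.59 over all tested genes. Those of Foxm1 and Foxk2 were thus no larger than the general shift, and Foxi3, Foxj2 and Foxp1 stayed past the threshold and lower under all 4 scalings. Leaving out single libraries ended the calls of Foxj2, Foxj3, Foxk2 and Foxr2, and ended none of those of Foxe1, Foxi3, Foxm1, Foxn2, Foxn4 and Foxp1.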

How the results depend on the processing

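Scaling moved the most. In the primed state the members called higher numbered 11 with median centring, 9 with quantile normalization and 11 with loess, 1 with a pseudocount of 0.1, without the filter, with a filter of 5 RPKM, without a trend and with library weights, and 0 with each state alone. The members called lower numbered 9 with the filter of 5 RPKM, 5 with median centring, 6 with quantile normalization and 6 with loess. In the naive state 0 were higher without the filter, and 4, 9 and 9 with median centring, quantile normalization and loess, and 2 and 3 were lower with quantile normalization and loess. For the difference between states 7, 6 and 6 were higher under those 3 scalings and 1 without the filter, and 3 were lower with median centring. Genes called in the naive state numbered 4456, 7967 and 7719 under the 3 scalings, 2526 with each state alone and 908 without a trend. With the replicate number as a block they numbered 942, and 0 members were then higher in the naive and 1 in the primed state. The labels give only a shared number, and the same-numbered libraries' deviations correlated at 0.314 in the naive and -0.036 in the primed state. Leaving out each library gave 552 to 2946 genes called in the naive, 5539 to 9960 in the primed and 3457 to 9269 in the difference between states, 0 to 2 members higher in the naive and 0 to 2 in the primed state, 9 to 17 lower in the primed state, and 6 to 15 lower for the difference. Signs turned under median centring, quantile normalization and loess, in that order, in the primed state for Foxp4 (0.54, 0.37, 0.33), Foxn3 (0.31, 0.29, 0.27), Foxo1 (0.18, 0.22, 0.21), Foxj3 (0.30, 0.26, 0.22), Foxk1 (0.29, 0.33, 0.32) and Foxo4 (0.30, 0.11, 0.079), and under median centring alone for Foxk2 (0.19), Foxo6 (0.077) and Foxm1 (0.14). They turned in the same way for Foxd1 (0.65, 0.0455, 0.19), whose primed values lay about the shared floor values. For the difference between states they turned for Foxp4 (0.66, 0.47, 0.46), Foxn3 (0.41, 0.40, 0.40), Foxk2 (0.28, 0.055, 0.053), Foxk1 (0.12, 0.16, 0.17), Foxd3 (0.42, 0.49, 0.52), Foxo1 (0.18, 0.23, 0.25) and Foxo4 (0.40, 0.21, 0.20). They turned with median centring and quantile normalization for Foxj3 (0.054, 0.021), and with median centring and loess for Foxd1 (0.55, 0.12). Under median centring alone they turned for Foxm1 (0.20), Foxc1 (0.13) and Foxo6 (0.20). Without single libraries the value ran from -0.22 to 0.29 for Foxo3 and from -0.32 to 0.13 for Foxp4 in the difference between states, from -0.25 to 0.16 for Foxn3 and -0.17 to 0.079 for Foxo4 in the naive state, and from -0.084 to 0.51 for Foxd3 and -0.38 to 0.072 for Foxp4 in the primed state. The cause of these changes was not tested. Depth is unknown, and silent members cannot be compared below the shared floor values.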
